A study of Mus musculus with 2 samples.

Results

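The collagen genes are described here across the classes of nuclei of an injured mouse spinal cord. Members are all features whose whole symbol is Col, digits, a, digits. There were 44 such genes among 32285 features in both matrices, and 43 of them had at least 20 UMIs (unique molecular identifiers, the count of distinct captured transcripts) over both libraries. Col10a1, a short chain collagen of growth plate cartilage, had 15 UMIs and is not described further. The rule used symbols and a total count, so it fixed no member's class or region.

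Collagens are secreted or membrane proteins whose chains wind into a triple helix. Fibrillar collagens such as types I, III and V form the tensile fibres of connective tissue, and types XI, XXIV and XXVII belong to the same group. Type IV collagens form the sheet of basement membranes under vessels and the pia, type VI forms beaded filaments, and FACIT collagens (fibril-associated collagens with interrupted helices) sit on the surface of fibrils. In the healthy cord, collagen lies mainly in the meninges and around vessels, and after injury fibroblasts lay down collagen in the scar. Some members, among them the transmembrane collagens Col25a1 and Col23a1, are known in neurons and glia.

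The nuclei came from spinal cords of male mice of the genotype labelled iNeuroD1GFP; NeuroD1 is a proneural transcription factor. The cord was injured at postnatal day 60, an agent labelled TAM followed on days 5 to 8 after it (100 mg/kg/day), and tissue was taken on day 10 from 3 mice, whose age label is 8 weeks. The cords were divided into an injury core and a second region, called distal in the titles and peri-injury in the extraction protocol, and each gave 1 library of nuclei from frozen tissue (10x Genomics 3′ chemistry). Both groups carry the same genotype and treatment, and neither an uninjured nor an untreated group was analysed here. What drives the transgene and in which cells, and whether the 3 mice were pooled, are not given in the sources used here.

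With 1 library per region there is no test, and no difference has a replicate check, and every interval below covers counting error only. Levels are CPM, the UMIs of a gene per 1000000 UMIs of its class in that library, with exact Poisson 95% intervals. The core library held 16362 barcodes and 30469263 UMIs (median 1303 per barcode), the distal library 7452 barcodes and 19049572 UMIs (median 1743), and 38 barcodes occurred in both. Of the nuclei kept, 6302 of 16360 in the core lay in 1 cluster called background-like, against 46 of 7443 in the distal library. It was called so because its UMIs per nucleus were below the library median and its nuclei varied little around their own pooled profile. Neuron markers summed to 28580 CPM in its core nuclei, and whether these nuclei hold free RNA alone was not tested. Classes with at least 50 nuclei are described: fibroblasts (411 distal, 116 core), endothelium (88, 57), neurons (1491, 8644), oligodendrocytes (1902, 278), astrocytes (629, 75), myeloid cells (332, 52), and in the distal library also oligodendrocyte precursors (OPCs, 367) and committed precursors (COPs, 102). All 8 fibroblast markers had UMIs in distal fibroblasts and 7 of 8 in core fibroblasts, where they summed to 2648 and 1696 CPM. The astrocyte list summed higher in the same nuclei, to 3703 CPM distal and 2454 CPM core. Slc1a2, the largest astrocyte marker in astrocytes (1790 CPM distal, 2269 CPM core), was at 148 and 20.9 CPM in fibroblasts, and Aqp4 at 17.1 and 6.95 CPM. In myeloid nuclei 6 of 8 markers had UMIs in the core. Neuron markers summed to 8551 CPM in distal and 19990 CPM in core fibroblasts, and to 26110 CPM in core myeloid nuclei against 28060 CPM in core neurons, so RNA of neuron markers was present in every class described.

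Fibroblasts carried the most collagen RNA in both regions. The members summed to 3210 CPM (3049 to 3376) in distal fibroblasts and 2955 CPM (2681 to 3250) in core fibroblasts. The next distal classes were astrocytes at 1129 CPM, COPs at 1058 CPM, OPCs at 899 CPM, myeloid cells at 899 CPM and neurons at 887 CPM, with endothelium at 706 CPM and oligodendrocytes lowest at 602 CPM. In the core, oligodendrocytes held 1263 CPM, myeloid cells 1209 CPM, astrocytes 1200 CPM, neurons 1113 CPM and endothelium 915 CPM. Fibroblast intervals lay above those of every other class described in the same library. Background-like nuclei of the core held 891 CPM.

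Collagen reads were spread thinly over nuclei. The median fibroblast nucleus had UMIs of 2 members in both libraries, the highest count was 11 members in a distal and 9 in a core nucleus, and 12.9% of distal and 14.7% of core fibroblast nuclei had none. In distal oligodendrocytes 39.5% of nuclei had no collagen UMI, against 23.2% of distal neurons.

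By gene, 22 of 43 members had their highest level in fibroblasts in the distal library, where 16.2% of all 18711 genes with at least 20 UMIs did. In the core it was 23 of 43 members, against 14.7% of 18689 genes. For 15 of the 22 distal members and 8 of the 23 core members the interval of the ratio to the next class lay above 1. No share over all genes stands beside these counts, so they describe the members alone. The other distal members were spread over neurons (5, background 11.8%), COPs (5, background 11.3%), endothelium (4, background 19.5%), myeloid cells (3, background 16.6%), oligodendrocytes (2, background 9.15%), astrocytes (2, background 9.05%) and OPCs (0, background 6.41%). In the core they were myeloid cells (6, background 15.7%), neurons (4, background 16.9%), astrocytes (4, background 16.8%), oligodendrocytes (3, background 15.2%) and endothelium (3, background 20.7%). Outside fibroblasts, each class's share of the members lay near or below its background.

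**Figure D1:**
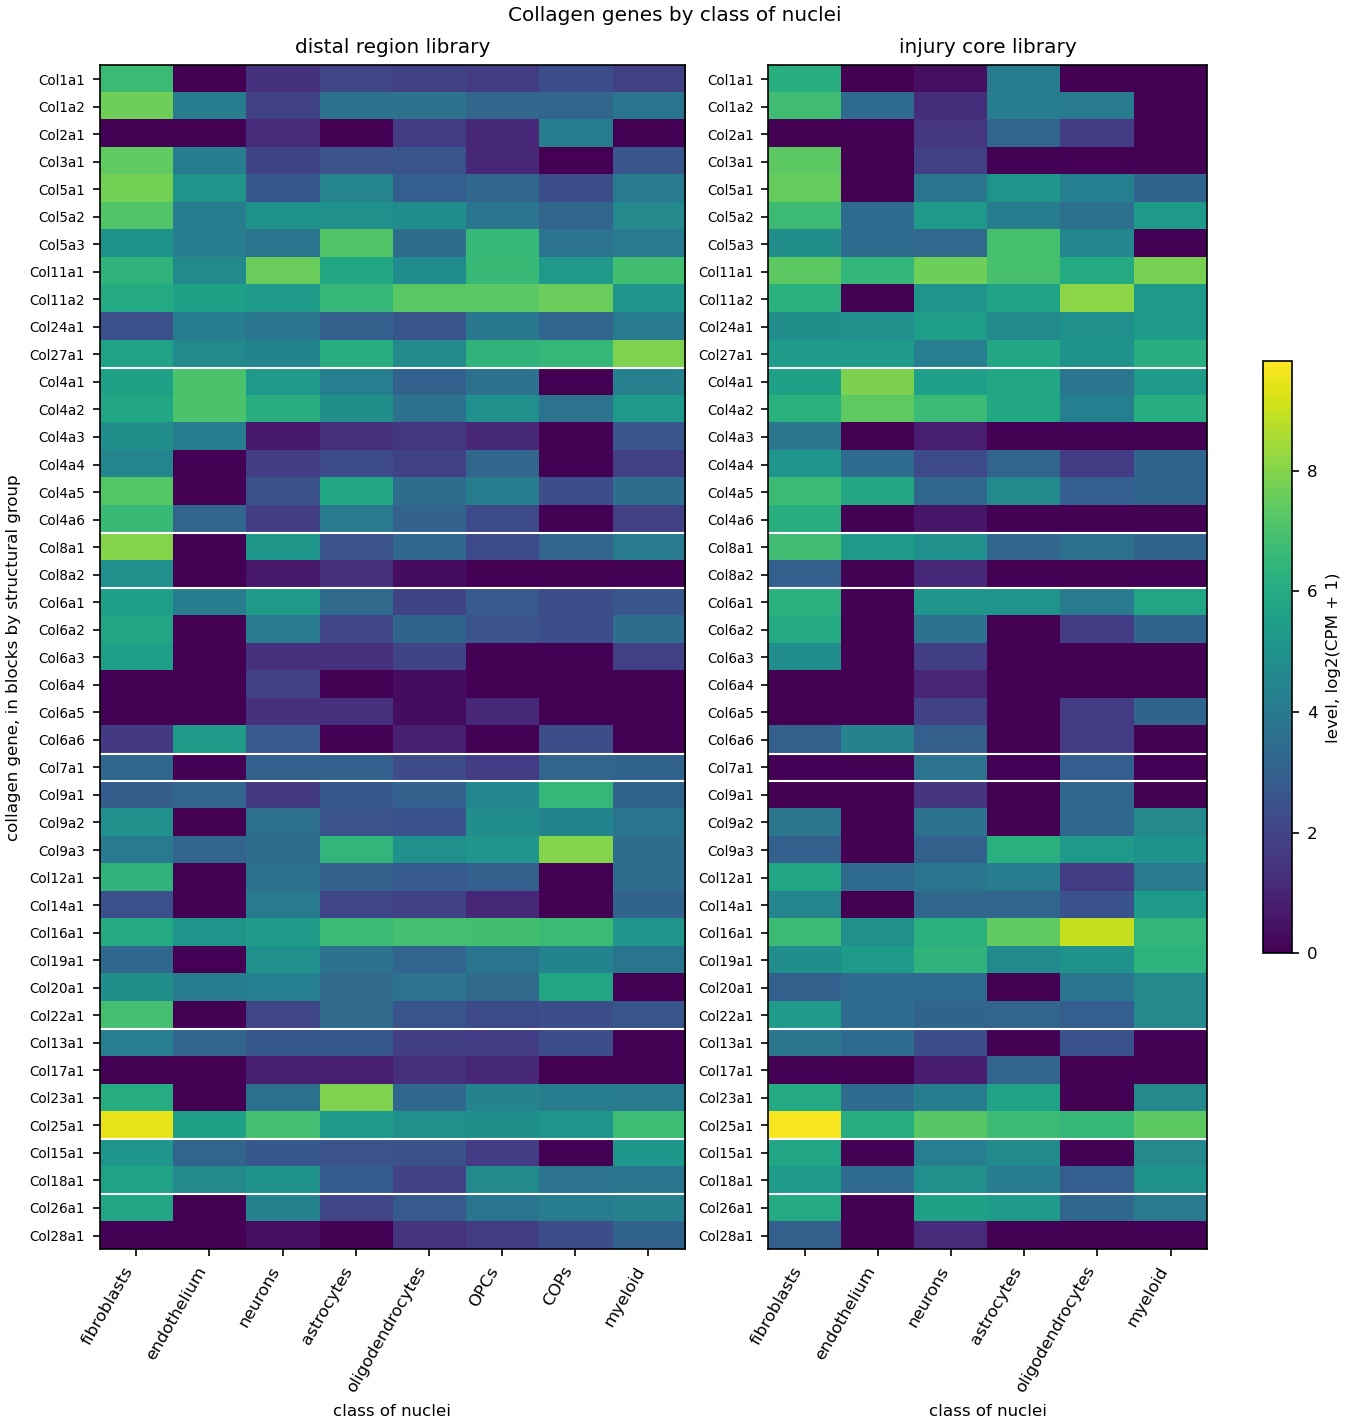
Level of each of the 43 collagen genes as log2(CPM + 1), by class of nuclei, in the distal (left) and core (right) library, with white lines between structural groups. The fibroblast column is brightest for Col1a1, Col1a2, Col3a1, Col5a1, Col5a2, Col6a1, Col6a2, Col6a3, Col8a1 and Col8a2 in both libraries, Col4a1 and Col4a2 are brightest in endothelium, and Col25a1 is brightest in fibroblasts of both libraries.

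The type I and III chains and the type V chains Col5a1 and Col5a2, all fibril formers, were highest in fibroblasts in both libraries. In the core the ratio to the next class had an interval that included 1 for Col1a1 (4.26, 0.908 to 39.98) and Col5a2 (2.62, 0.906 to 9.22). Col1a2, a chain of type I collagen, stood at 201 CPM (163 to 247) in distal and 111 CPM (63.6 to 181) in core fibroblasts, and its partner Col1a1 at 103 CPM (75.8 to 136) and 69.5 CPM (33.3 to 128). Col3a1, the chain of type III collagen, was at 171 CPM (136 to 213) and 160 CPM (101 to 240). Each of these 3 genes was at 16.3 CPM or below in every other class described, in either library. Col1a1 had 48 UMIs in distal fibroblasts and 6 in the far larger distal neuron class, and 18.2% of distal fibroblast nuclei had a Col1a2 UMI (75 of 411, 14.6 to 22.3%).

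The type V chains Col5a1 and Col5a2, which start and limit type I fibrils, shared the fibroblast peak. Col5a1 was at 219 CPM (178 to 265) in distal and 181 CPM (118 to 265) in core fibroblasts, and the next distal class, endothelium, stood at 32.5 CPM. Col5a2 was at 141 CPM (109 to 180) in distal and 104 CPM (58.4 to 172) in core fibroblasts and, unlike the type I chains, was also present in neurons (32.3 CPM distal, 38.8 CPM core). Levels of different genes are set side by side per 10 kb of gene span, since nuclear RNA is largely unspliced and long genes collect more reads. On that scale Col1a1 (61.2), Col1a2 (54.8) and Col3a1 (44.9) led in distal fibroblasts, ahead of Col5a1 (14.3) and Col5a2 (10.97 CPM per 10 kb).

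The remaining fibrillar genes were not mainly fibroblast genes. Col5a3, the third type V chain, was highest in astrocytes in both libraries, at 141 CPM (121 to 163) distal and 122 CPM (68.5 to 202) core, followed in the distal library by OPCs at 95.1 CPM. Col11a1, known for cartilage fibrils, was highest in distal neurons at 188 CPM (174 to 203), with a UMI in 25.4% of nuclei, and core neurons stood at 201 CPM (195 to 207). In the core its highest value was in myeloid nuclei, 223 CPM (148 to 322) from 28 UMIs in 12 of 52 nuclei. That value was 1.11 times the neuron level (0.736 to 1.61), beside 0.619 to 1.04 times for the 7 neuron markers in the same nuclei, and background-like nuclei held 160 CPM. Col27a1, a short fibrillar collagen, was highest in distal myeloid nuclei at 239 CPM (193 to 293), 2.63 times the COP level, and 21.4% of these nuclei had a UMI. Core myeloid nuclei held 71.6 CPM of it from 9 UMIs. Col24a1, a minor fibrillar collagen, was highest in core neurons at 43.2 CPM (40.3 to 46.2), not set apart from core myeloid nuclei at 39.8 CPM, and had at most 2 UMIs in its highest distal class, endothelium. Col2a1, the main cartilage collagen, peaked with 4 UMIs in distal COPs and 1 UMI in core astrocytes.

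Col11a2, the partner chain of Col11a1 in type XI collagen, followed the oligodendrocyte lineage instead. In the distal library it was at 190 CPM (139 to 254) in COPs, 158 CPM (132 to 187) in OPCs and 157 CPM (145 to 170) in mature oligodendrocytes, against 40.7 CPM in neurons. In the core it was at 276 CPM (229 to 329) in oligodendrocytes and 33.2 CPM in neurons. The OPC, COP and oligodendrocyte intervals overlap in the distal library, so no order within the lineage can be read. The FACIT gene Col16a1 had a related pattern. It was at 120.4 CPM (110 to 132) in distal oligodendrocytes, 115 CPM in OPCs, 103 CPM in COPs and 101.5 CPM in astrocytes, against 40.5 CPM in neurons, and at 488 CPM (426 to 558) in core oligodendrocytes, where 46.4% of nuclei had a UMI. Col16a1 was thus not confined to the lineage, and astrocytes were the next core class at 171 CPM (ratio 2.85, 1.82 to 4.70). Thinned to 1000 UMIs per nucleus, 34.5% of core and 11.4% of distal oligodendrocyte nuclei had a Col16a1 UMI.

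Promoter windows of these genes are shown because the pattern of expression divides the family. Col1a2 stands for the fibroblast fibril genes, and Col11a2 and Col16a1 for genes high in the oligodendrocyte lineage. Col4a2 and Col4a4 stand for 2 head-to-head basement membrane pairs. Sequences are from RefSeq on GRCm38.p6 and run 5′ to 3′ on the gene's strand from 250 bases before to 50 bases after the start that RefSeq gives. Capitals mark matches on either strand to 3 promoter motifs. These are the CCAAT box with those letters, the GC box with the letters GGGCGG, and the TATA box with the letters TATAAA. A match to the reverse of CCAAT can share bases with a GC box. The windows lie at chr6:4505368-4505667 (+, Col1a2), chr17:34038888-34039187 (+, Col11a2) and chr4:130047590-130047889 (+, Col16a1).
Col1a2: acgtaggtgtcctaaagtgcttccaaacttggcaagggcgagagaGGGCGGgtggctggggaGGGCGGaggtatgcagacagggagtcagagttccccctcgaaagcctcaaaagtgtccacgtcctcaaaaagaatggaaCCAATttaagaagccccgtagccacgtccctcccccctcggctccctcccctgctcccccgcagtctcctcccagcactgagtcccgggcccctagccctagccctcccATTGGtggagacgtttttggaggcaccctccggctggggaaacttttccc
Col11a2: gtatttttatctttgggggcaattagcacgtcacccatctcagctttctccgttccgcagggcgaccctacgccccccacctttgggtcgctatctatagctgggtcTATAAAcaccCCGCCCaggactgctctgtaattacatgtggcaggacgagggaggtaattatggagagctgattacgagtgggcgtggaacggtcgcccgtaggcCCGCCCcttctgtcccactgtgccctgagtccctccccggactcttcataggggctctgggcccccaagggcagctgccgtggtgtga
Col16a1: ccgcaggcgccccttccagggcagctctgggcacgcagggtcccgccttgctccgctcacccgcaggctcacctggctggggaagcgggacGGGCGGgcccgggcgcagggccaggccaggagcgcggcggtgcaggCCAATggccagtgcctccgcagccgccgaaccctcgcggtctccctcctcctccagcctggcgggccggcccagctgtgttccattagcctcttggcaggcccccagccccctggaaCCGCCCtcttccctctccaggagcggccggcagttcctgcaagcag
Among the 37 windows found for 34 of the 43 members, 13 (35.1%) held CCAAT, 23 (62.2%) GGGCGG and 4 (10.8%) TATAAA. Over all 32841 RefSeq windows the shares were 37.4%, 35.7% and 13.6%. A match is a description of letters and not of binding.

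Basement membrane collagens fell into 3 gene pairs that lie head to head, and each pair had a shared class. Col4a1 and Col4a2, the chains of the common type IV network, were highest in endothelium in both libraries, though core Col4a2 was not set apart from neurons (1.63, 0.948 to 2.62). Col4a1 was at 130 CPM (74.2 to 211) in distal and 236 CPM (151 to 351) in core endothelium, and Col4a2 at 130 CPM (74.2 to 211) and 167 CPM (97.4 to 268). Each of these 4 values rests on 16 to 24 UMIs. Both genes were also present in neurons, where Col4a2 stood at 70.0 CPM (61.7 to 79.1) distal and 103 CPM (98.1 to 107) core and Col4a1 at 37.5 and 45.3 CPM. Col4a1 and Col4a2 start 21 bases apart on opposite strands of chromosome 8, and their gene models overlap at 11312805 to 11312826, so a read there needs its strand to be assigned.

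Col4a3 and Col4a4, the chains of the network of kidney and other specialised basement membranes, start 72 bases apart on chromosome 1 and were low. Distal fibroblasts held 27.9 CPM (14.8 to 47.6) of Col4a3 and 21.4 CPM (10.3 to 39.4) of Col4a4, 13 and 10 UMIs. Core fibroblasts held 2 and 5 UMIs. Fibroblasts were the highest class for both genes in both libraries, but the interval of the distal ratio to the next class included 1. Col4a5 and Col4a6, which start 1309 bases apart on the X chromosome, were highest in fibroblasts too. Col4a5 was at 150 CPM (117 to 190) in distal and 104 CPM (58.4 to 172) in core fibroblasts, and Col4a6 at 98.6 CPM (72.2 to 132) and 69.5 CPM (33.3 to 128). Astrocytes were the next distal class for both, at 56.2 CPM for Col4a5 and 15.6 CPM for Col4a6. In the core Col4a5 was not set apart from endothelium at 59.0 CPM (ratio 1.77, 0.648 to 5.56).

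The windows of the first and second pair each reach over both starts. They lie at chr8:11312555-11312854 (+, Col4a2) and chr1:82586800-82587099 (-, Col4a4), and the capitals mark the same motifs.
Col4a2: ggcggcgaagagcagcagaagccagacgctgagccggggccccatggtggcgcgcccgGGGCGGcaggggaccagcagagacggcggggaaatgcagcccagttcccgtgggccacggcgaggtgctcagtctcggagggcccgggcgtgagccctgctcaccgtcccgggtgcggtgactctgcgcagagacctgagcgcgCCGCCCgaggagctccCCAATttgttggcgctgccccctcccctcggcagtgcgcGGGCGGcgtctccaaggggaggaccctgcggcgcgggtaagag
Col4a4: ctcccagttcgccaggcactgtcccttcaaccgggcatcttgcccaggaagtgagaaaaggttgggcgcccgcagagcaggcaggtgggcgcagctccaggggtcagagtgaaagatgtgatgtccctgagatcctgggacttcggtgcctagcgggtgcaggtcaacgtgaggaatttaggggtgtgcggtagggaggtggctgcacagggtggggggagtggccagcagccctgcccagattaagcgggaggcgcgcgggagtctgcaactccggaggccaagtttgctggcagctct
The Col4a2 window is 73.7% G or C with 3 GGGCGG matches and 1 CCAAT match, and the Col4a4 window is 63.3% G or C with none of the 3 motifs.

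Among FACIT genes, Col12a1 and Col22a1 were highest in fibroblasts, set apart from the next class in the distal library but not in the core. Col22a1, known at tissue junctions, was at 120.0 CPM (90.6 to 156) in distal fibroblasts against 9.37 CPM in the next class, astrocytes, and had 6 UMIs in core fibroblasts (41.7 CPM). Col12a1, which binds type I fibrils, was at 81.4 CPM (57.6 to 112) in distal fibroblasts, 6.93 times the neuron level, and had 8 UMIs in core fibroblasts (55.6 CPM). Col9a1 and Col9a3, chains of type IX collagen, were highest in COPs. Col9a3 was at 252 CPM (193 to 324) in distal COPs, with a UMI in 44.1% of nuclei, followed by astrocytes at 85.9 CPM, and Col9a1 was at 91.0 CPM (57.0 to 138), 4.03 times the OPC level. The core had too few COPs to describe, and there astrocytes held 73.5 CPM of Col9a3 from 9 UMIs. Col9a2 had 14 UMIs in distal fibroblasts, an interval of 16.4 to 50.3 CPM, and stood at 27.4 CPM in OPCs. Col9a3 overlaps Tcfl5 on the other strand, and its values are uncertain to that extent.

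Col19a1, a FACIT gene known in neurons, was highest in neurons in both libraries, at 29.3 CPM (24.0 to 35.4) distal and 81.4 CPM (77.5 to 85.5) core. Core myeloid nuclei stood at 79.5 CPM and background-like nuclei at 72.7 CPM, so the core library did not set neurons apart. Nor did the distal library, where COPs stood at 20.7 CPM (ratio 1.42, 0.588 to 4.45). Col14a1 was at 15.9 CPM (12.04 to 20.5) in distal neurons. Col20a1 was at 53.7 CPM (28.6 to 91.9) in distal COPs and 27.9 CPM in distal fibroblasts, with overlapping intervals.

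Type VI chains parted by chain. Col6a1, Col6a2 and Col6a3, which assemble the common type VI filament, were highest in fibroblasts in both libraries. Distal and core fibroblasts held 45.0 CPM (27.9 to 68.8) and 76.5 CPM (38.2 to 137) of Col6a1. They held 55.7 CPM (36.4 to 81.6) and 62.6 CPM of Col6a2, and 45.0 CPM (27.9 to 68.8) and 27.8 CPM of Col6a3, the core values from 9 and 4 UMIs. Col6a1 was at 41.8 CPM (35.5 to 49.0) in distal neurons, which overlaps the fibroblast interval, whereas Col6a3 was at 1.64 CPM there. Col6a4 was at 2.73 CPM (1.31 to 5.03) in distal and 1.07 CPM (0.661 to 1.63) in core neurons. Col6a5 had 6 UMIs in its highest distal class, neurons, and Col6a6 had 5 UMIs in distal endothelium.

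The transmembrane genes were split between cell types. Col25a1, known for the innervation of muscle and for amyloid plaques, was at 714 CPM (639 to 794) in distal and 834 CPM (692 to 998) in core fibroblasts, against 117 CPM (106 to 128) and 153 CPM (148 to 159) in neurons. It gave 333 of the 1498 collagen UMIs of distal and 120 of the 425 of core fibroblasts. Most of them lay in 1 sub-cluster, described below with the values without it. Per 10 kb of its 468 kb span it stood at 15.2 in distal fibroblasts, below Col1a1. Col23a1 was highest in distal astrocytes at 240 CPM (214 to 268), 3.61 times the level in fibroblasts, with a UMI in 27.8% of nuclei, and core astrocytes held 49.0 CPM from 6 UMIs, beside 62.6 CPM from 9 UMIs in core fibroblasts. Col13a1 and Col17a1 had 8 and 6 UMIs in their highest distal classes, fibroblasts and oligodendrocytes.

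Of the short chain genes, Col8a1, a component of vessel walls and corneal membrane, was at 264 CPM (219 to 314) in distal and 111 CPM (63.6 to 181) in core fibroblasts, 7.42 times the neuron level in the distal library and not set apart from endothelium in the core (2.83, 0.912 to 11.6). Most distal Col8a1 UMIs lay in 1 fibroblast sub-cluster, described below with the level in the other fibroblasts. Col8a2, the partner of Col8a1, had 14 UMIs in distal fibroblasts, an interval of 16.4 to 50.3 CPM, and 1 UMI in core fibroblasts. The multiplexins, basement membrane proteoglycans whose ends give antiangiogenic fragments, were less distinct. Col18a1 was at 49.3 CPM (31.2 to 74.0) in distal fibroblasts and 31.4 CPM in neurons, and overlaps Slc19a1 on the other strand. Col15a1 was at 36.4 CPM (19.9 to 61.1) in distal myeloid nuclei and 34.3 CPM in fibroblasts. Among the others, Col26a1 was at 55.7 CPM (36.4 to 81.6) in distal fibroblasts. Col7a1, the anchoring fibril gene, was at 12.4 CPM (10.9 to 14.0) in core neurons and had 4 UMIs in its highest distal class, fibroblasts. Col28a1 had 3 UMIs in distal myeloid nuclei.

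How far a class's level exceeds that of neuronal RNA in it was read from the 7 neuron markers. In distal fibroblasts these stood at 0.187 to 0.527 times their neuron level, and the ratio of 31 of 43 members to neurons had an interval above all of them, against 20 of 43 in core fibroblasts, where the markers stood at 0.393 to 0.812. In core myeloid nuclei 3 of 43 members did, Col9a3, Col27a1 and Col14a1. The same counts were not made over all genes, so they do not set collagens apart from other genes. Core fibroblasts had fewer nuclei and a higher marker limit, so the distal and core counts do not compare the regions. The share of each level that is free RNA was not tested.

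Within fibroblasts the collagens divided by sub-cluster. The class held 4 groups, found without collagen genes: sub-clusters 10 (225 distal, 69 core nuclei), 33 (105, 7), 34 (69, 33) and 35 (12, 7). They come from the same nuclei that are described, so the differences between them are given as a description. Sub-cluster 34 was led by Slc47a1 and Slc47a2, organic cation exporters, with Slc26a7 and Tbx15. It held 291 of the 333 distal and 105 of the 120 core Col25a1 UMIs, at 3485 CPM (3096 to 3910) and 2420 CPM (1979 to 2929), with a UMI in 50 of 69 and 24 of 33 nuclei and up to 37 UMIs in a nucleus. The other fibroblasts stood at 110 CPM distal and 149 CPM core, at the level of neurons. Without sub-cluster 34 the fibroblast level of Col25a1 was therefore no higher than that of neurons in either library.

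Sub-cluster 34 also held 100 of the 123 distal Col8a1 UMIs, at 1198 CPM (974.5 to 1457) against 60.0 CPM in the other fibroblasts. It held 13 of the 14 distal Col8a2 UMIs and 26 of the 38 distal Col12a1 UMIs, at 311 CPM against 31.3 CPM. Type VI genes were higher in it too, Col6a2 at 156 CPM against 33.9 CPM and Col6a3 at 120 CPM against 28.7 CPM. Col1a2 and Col3a1 were not, at 252 CPM against 191 CPM and 204 CPM against 164 CPM with ratio intervals that include 1. Col22a1, Col4a6 and Col26a1 had 0 distal UMIs in it, with an upper limit of 44.2 CPM each. In the core it held 3 Col26a1 UMIs, 69.1 CPM against 59.7 CPM in the other core fibroblasts, so the distal difference in Col26a1 did not recur there. In the core, sub-cluster 34 held 9 Col8a1 UMIs, 207 CPM (94.9 to 394), which was 0.173 times the distal level (0.0770 to 0.342), while Col25a1 stood at 0.694 times (0.550 to 0.871) and Col12a1 at 0.370 times (0.111 to 0.979). The sub-cluster made up 28.4% of core fibroblasts (20.5 to 37.6%) and 16.8% of distal fibroblasts (13.3 to 20.8%).

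Sub-cluster 33, almost wholly distal at 25.5% of distal against 6.03% of core fibroblasts, had the opposite set. Its Col22a1 level was 232 CPM (161 to 322) against 66.5 CPM in the other distal fibroblasts, Col4a5 was at 252 CPM against 101 CPM, Col4a6 at 165 CPM against 66.5 CPM and Col26a1 at 119 CPM against 25.4 CPM. Col25a1 was at 26.5 CPM there. Col4a1 was concentrated in sub-cluster 10, with 19 of its 22 distal fibroblast UMIs.

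The markers of the fibroblast list were weak in sub-cluster 34. They summed to 946 CPM distal and 507 CPM core, mostly Eya2, against 2087 and 2230 CPM in sub-cluster 10, and 3 other members of the list, Slc7a11, Slc6a20a and Ranbp3l, were at 0, 24.0 and 11.98 CPM in distal nuclei. Endothelial and mural lists were low in it as well (108 and 95.8 CPM distal). Without sub-clusters 34 and 35 the fibroblast sum was 2417 CPM distal and 2388 CPM core, still the highest of the classes described, Col25a1 stood at 82.0 and 121 CPM and Col8a1 at 62.9 CPM distal. Col1a2 stood at 199.6 CPM distal, and Col5a1 at 243 CPM distal and 265 CPM core. Under 4 other settings the fibroblast class did not keep the high level, with Col25a1 at 49.8 to 73.7 CPM distal and 108 to 125 CPM core.

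**Figure D2:**
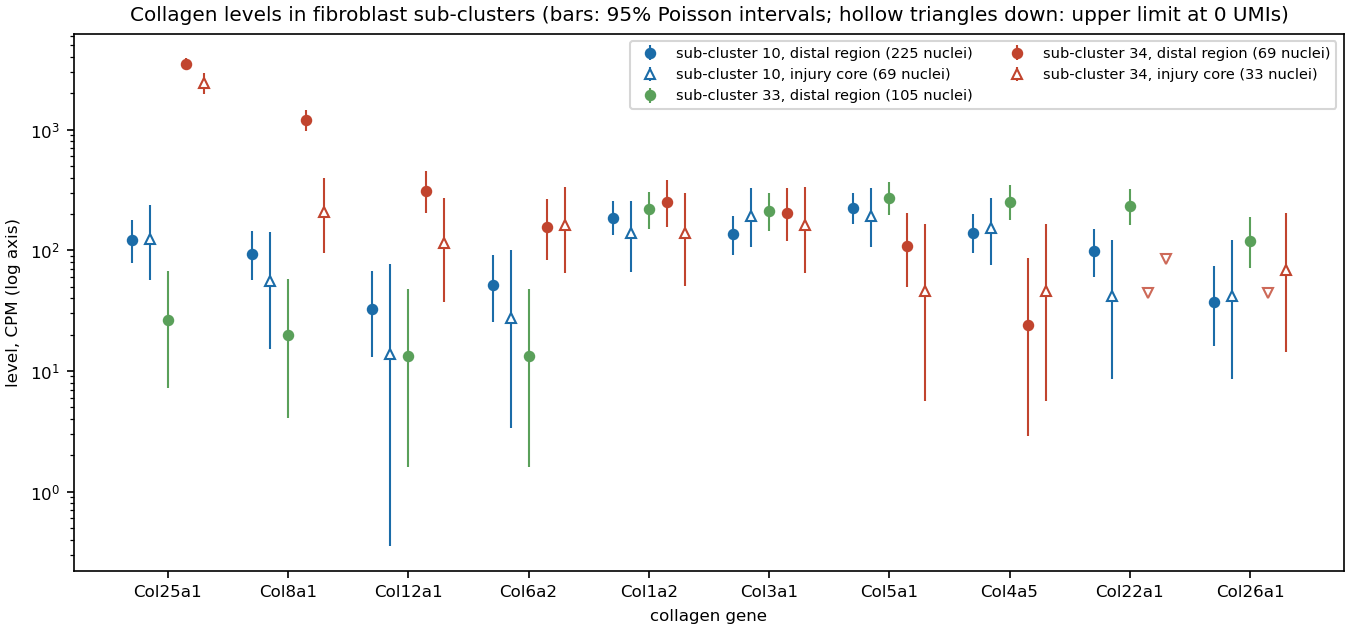
Level in CPM (log axis) of 10 collagen genes in fibroblast sub-clusters 10, 33 and 34, with filled symbols for the distal and hollow symbols for the core library, 95% Poisson intervals as bars and small downward triangles for the upper limit at 0 UMIs. Col25a1 at 3485 and 2420 CPM and distal Col8a1 at 1198 CPM stand above the other sub-clusters, while Col1a2 and Col3a1 overlap between them.

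Neurons were not uniform either. Clusters were built without collagen genes, and again the differences between them are a description. Col11a1 was highest in cluster 7, an excitatory cluster led by Ccdc172 and Pde11a, at 466 CPM (419 to 517) distal and 285 CPM (255 to 317) core, against 33.3 CPM in distal cluster 13. Col25a1 was highest in cluster 18, an excitatory cluster led by C1qtnf7 and Cpne4, at 490 CPM (378 to 626) distal and 353 CPM (270 to 453) core. Both genes are long, and both peaks recur in the other library.

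Col6a1, the type VI chain with a neuronal site, had its highest level in cluster 13, rich in inhibitory markers and led by Gucy2d and Hmga2, at 271 CPM (205 to 351) distal and 198 CPM (166 to 235) core. It was present in 43.3% of distal and 25.7% of core nuclei of that cluster and was at 5.97 to 60.4 CPM in distal clusters 3, 5, 7 and 8. Cluster 13 held 57 of the 153 distal and 135 of the 659 core neuronal Col6a1 UMIs, and core cluster 11, where Col6a1 is also among the leading genes, held 109 at 98.0 CPM. Col5a2 had 2 sites, cluster 5 (86.6 CPM distal, 153 CPM core) and cluster 13 (85.6 CPM distal, 93.9 CPM core). Col27a1 was highest in cluster 14, led by Maf, at 126 CPM (86.4 to 176) distal and 114 CPM (90.7 to 141) core. In that cluster Col5a1 reached 79.6 CPM (60.4 to 103) in the core, from 58 UMIs, and 19.0 CPM from 5 UMIs in the distal library. Col8a1 was highest in distal cluster 5 at 109 CPM (85.4 to 137), and Col14a1 in distal cluster 23, the cerebrospinal fluid-contacting neurons marked by Pkd2l1, at 98.9 CPM (58.6 to 156).

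**Figure D3:**
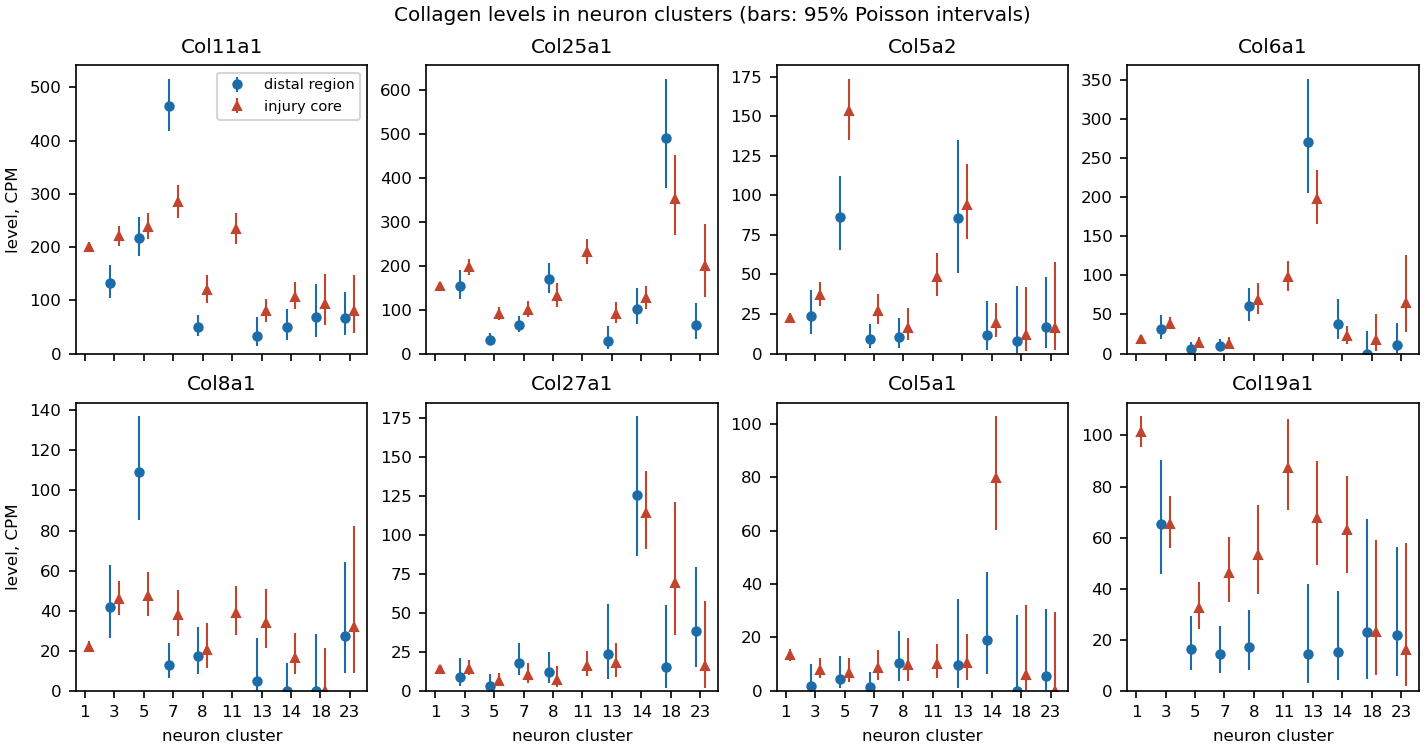
Level in CPM of 8 collagen genes by neuron cluster, with circles for the distal and triangles for the core library and bars for 95% Poisson intervals; clusters 1 and 11 are shown for the core alone. Col11a1 peaks in cluster 7, Col25a1 in cluster 18, Col6a1 in cluster 13 and Col27a1 in cluster 14 in both libraries.

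Core and distal libraries were compared within neurons, oligodendrocytes and fibroblasts, each with 100 or more nuclei in both libraries. A gene was compared at 10 CPM or more in either library and called at a 1.5-fold ratio whose exact conditional 95% interval excluded 1. In fibroblasts, of 35 members compared, 1 was higher in the core, against 6.14% of all 11438 genes, and 3 were lower, against 5.53%. The median log2 ratio of the members was -0.09, against -0.07 over all genes compared.

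The lower members were Col22a1, Col8a1 and Col1a2. Col22a1 stood at 0.348 times its distal level (0.122 to 0.805), Col8a1 at 0.422 times (0.234 to 0.713) and Col1a2 at 0.552 times (0.303 to 0.944), from 6, 16 and 16 core UMIs. Sub-cluster 33, where Col22a1 was highest, held a smaller share of core fibroblasts. Within sub-cluster 10 alone, Col22a1 stood at 0.425 times (0.0811 to 1.42) and Col1a2 at 0.744 times (0.332 to 1.51), both with intervals that include 1. Col11a1 was 1.96 times higher (1.12 to 3.38), and neuron markers in fibroblasts were at 19990 CPM in the core against 8551 CPM distal. Whether neuronal RNA has a part in that ratio was not tested. Col3a1 (160 CPM core, 171 CPM distal), Col5a1 (181, 219 CPM) and Col25a1 (834, 714 CPM) did not meet the call. For Col25a1 the pooled value joins a larger share of sub-cluster 34 in the core with a lower level inside it. With 116 core nuclei the intervals were wide, so smaller differences were not detectable at this depth. Without sub-clusters 34 and 35 the core had fewer than 100 fibroblast nuclei and no comparison was made.

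In oligodendrocytes 8 of 18 members were higher in the core, against 15.2% of 9864 genes, and 1 was lower, against 9.03%. The median log2 ratio was 0.91 against 0.07 over all genes. Col16a1 stood out in UMIs, 488 CPM (426 to 558) against 120.4 CPM (110 to 132), a ratio of 4.06 (3.44 to 4.77). Col11a2, which like Col16a1 had oligodendrocytes as its highest core class, was 1.75 times higher (1.43 to 2.13). The other higher members had 41 or fewer core UMIs: Col24a1 at 5.68 times, Col6a1 at 5.10 times, Col19a1 at 3.83 times, Col25a1 at 3.14 times, Col5a1 at 2.69 times and Col11a1 at 2.38 times. Col5a2 was lower at 0.412 times (0.131 to 0.993), from 5 core UMIs, a call that ended under 6 other settings (0.417 to 0.866 times). The Col11a2 call ended at a Leiden resolution of 2.0 (1.35 times) and the Col25a1 call with nuclei of at least 500 genes (1.35 times).

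Beside these ratios stand 2 differences between the libraries. Neuron markers summed to 12950 CPM in core and 4252 CPM in distal oligodendrocytes, a median of 0.464 and 0.197 times the neuron level. Col24a1, Col6a1, Col19a1, Col25a1 and Col11a1 were at 0.312 to 0.674 times the neuron level in core oligodendrocytes, within or near the range of the markers. Col16a1 and Col11a2 stood at 6.602 and 8.31 times the core neuron level, and Col5a1 at 1.31 times from 8 UMIs. Oligodendrocytes of the libraries also lay in different clusters, 267 of 278 core nuclei in cluster 26 and 1853 of 1902 distal nuclei in cluster 2. Cluster 26 was cut from a cluster with markers of more than 1 class. Its neuron markers summed to 12970 CPM core and 10900 CPM distal, beside 13260 and 10890 CPM for its oligodendrocyte markers. Inside cluster 26, Col16a1 was at 502 CPM (437 to 575) in the core and 122 CPM (65.1 to 209) in the 49 distal nuclei, close to the 120.4 CPM of distal cluster 2. Col11a2 in cluster 26 was at 283 CPM (235 to 339) in the core and 198 CPM (122 to 302) in the distal library, with overlapping intervals.

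In neurons 7 of 25 members were higher in the core, against 11.3% of 9708 genes, and 2 were lower, against 14.4%. The median log2 ratio was 0.17 against -0.01. The higher members were Col15a1 at 4.13 times (2.47 to 7.46), Col24a1 at 3.10 times (2.32 to 4.23), Col19a1 at 3.02 times (2.45 to 3.76), Col26a1 at 2.64 times (2.05 to 3.46), Col5a1 at 2.55 times (1.60 to 4.31), Col16a1 at 1.92 times (1.61 to 2.31) and Col7a1 at 1.68 times (1.11 to 2.66). Col14a1 and Col20a1 were lower, at 0.506 times (0.366 to 0.707) and 0.551 times (0.412 to 0.746). Several of these calls depended on how nuclei were classed. The Col5a1 call ended under 4 settings (1.28 to 1.79 times), the Col16a1 call under 2 (1.39 and 1.43 times), and those of Col24a1 (1.32 times), Col15a1 (2.03 times), Col7a1 (1.60 times) and Col14a1 (0.525 times) with nuclei classed singly by their own markers. With that classing Col20a1 turned to 2.02 times higher, and its lower call ended under 3 further settings (0.670 to 0.755 times). The genes with most neuronal UMIs, Col11a1, Col25a1 and Col4a2, did not meet the call. Cluster 11, with 468 core and 47 distal nuclei, was left out of this comparison. Over all neurons, oligodendrocyte markers summed to 2386 CPM in the distal and 300.5 CPM in the core library. Whether RNA of other cells has a part in the neuron ratios was not tested.

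The makeup of the neurons differed between libraries. Cluster 1 held 4223 core and 44 distal nuclei, and the core neurons carried Hoxd11, a gene of the caudal cord, at 19.9 CPM from 391 UMIs against 0 UMIs in distal neurons, so injury core and cord level cannot be told apart. Within clusters 3, 5, 7 and 8, which had at least 100 nuclei in both libraries, the calls were partly kept. Col19a1 was higher in clusters 5, 7 and 8, at 1.97, 3.24 and 3.09 times, but not in cluster 3 (65.5 and 65.3 CPM). Col24a1 was higher in clusters 3, 5 and 8 and Col26a1 in clusters 3 and 7. Col15a1 was called in cluster 7 and Col16a1 in cluster 8. Clusters also went opposite ways: Col11a1 was higher in the core in clusters 3 (1.67 times) and 8 (2.37 times) and lower in cluster 7 (0.611 times, 0.525 to 0.711), and Col8a1 was lower in cluster 5 (0.434 times) and higher in cluster 7 (2.92 times). The pooled neuron ratio of Col11a1 near 1 therefore covers differences in both directions, which have no replicate check.

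**Figure D4:**
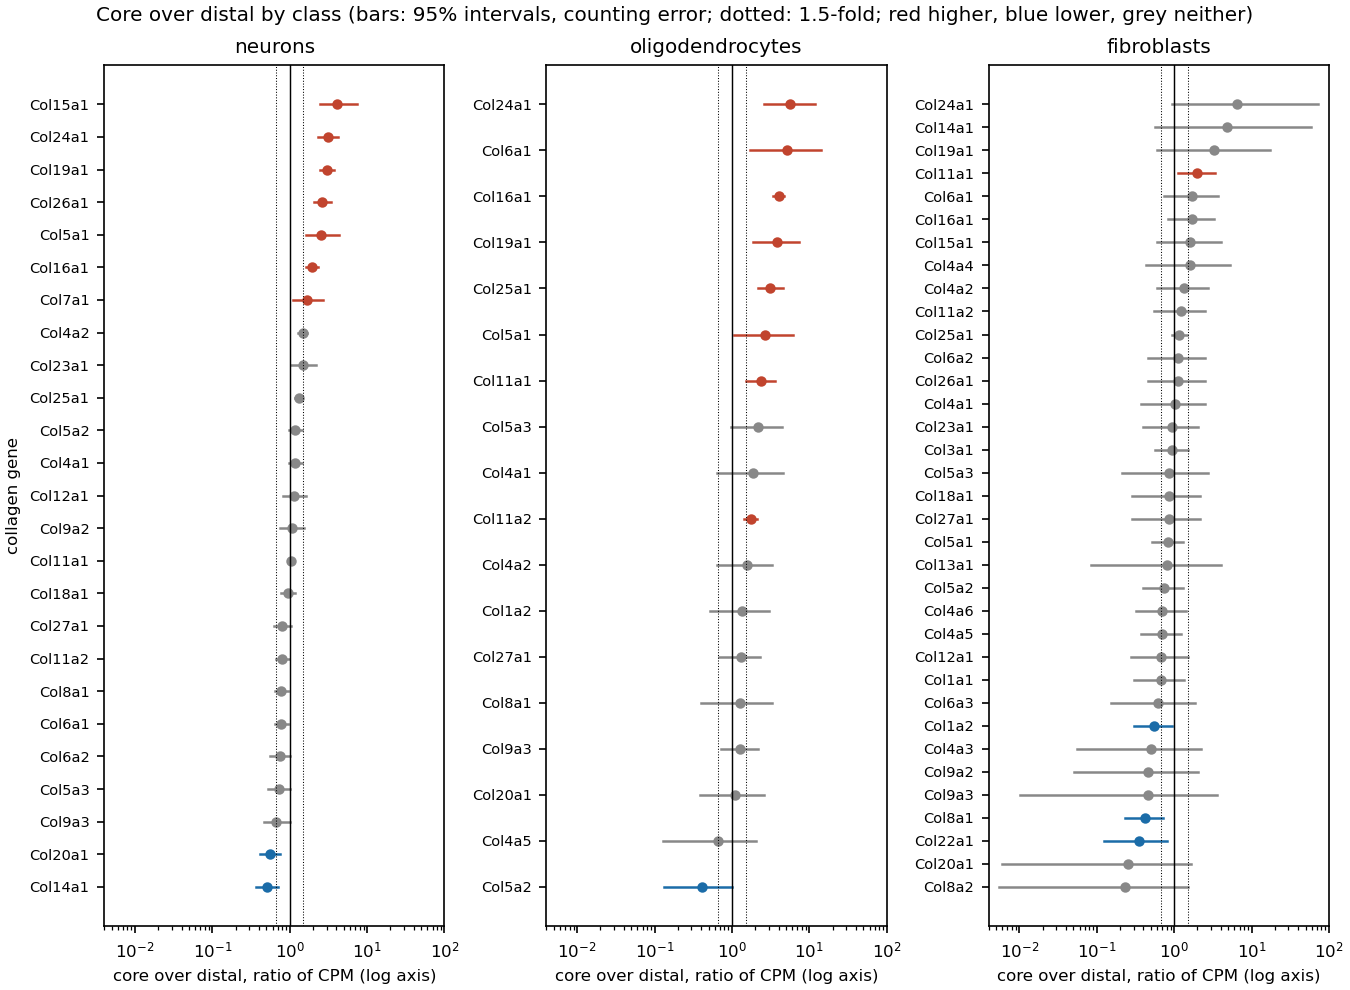
Ratio of core over distal CPM (log axis) for each member compared in neurons, oligodendrocytes and fibroblasts, with 95% intervals for counting error, red for higher, blue for lower and grey for neither; dotted lines mark 1.5-fold. The higher side holds 7 of 25 members in neurons, 8 of 18 in oligodendrocytes and 1 of 35 in fibroblasts.

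Collagen chains need a set of partner proteins, and these were followed as 6 lists. In the distal library fibroblasts were the highest class for 4 of 19 modifying enzymes and chaperones, 4 of 8 genes of propeptide processing, 2 of 3 measured crosslinking genes, 5 of 7 fibril organisers, 4 of 11 collagen receptors and 4 of 8 genes of degradation and its inhibitors, 23 of 56 in all (41.1%), against 16.2% of all genes. In the core the total was 16 of 56 (28.6%), against 14.7%. The fibril organisers Dcn and Lum are also in the fibroblast marker list. Their place in these counts is therefore not independent of how fibroblasts were named. For the enzymes alone, 4 of 19 in fibroblasts and 5 of 19 in endothelium lay near the distal backgrounds of 16.2% and 19.5%, and in the core 9 of 19 were highest in endothelium, against 20.7%.

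In distal fibroblasts P4ha1, a prolyl hydroxylase that stabilises the helix, was at 96.4 CPM (70.3 to 129) and Plod2, a lysyl hydroxylase, at 92.1 CPM (66.7 to 124). The N-propeptidase Adamts2 was at 159 CPM (125 to 199) and the C-propeptidase Bmp1 at 103 CPM (75.8 to 136). Loxl1, a crosslinking oxidase, was at 62.1 CPM (41.6 to 89.2) and Loxl2 had 3 UMIs. Fn1, the fibronectin on which fibrils assemble, was at 236 CPM (194 to 284) and Tnxb, a tenascin, at 111 CPM (83.2 to 146). Among receptors Mrc2, which takes up collagen, was at 144 CPM (111 to 182) and Ddr2, a collagen-binding kinase, at 139 CPM (108 to 178). Timp3 and Timp2, inhibitors of matrix proteases, were at 268 CPM (223 to 319) and 81.4 CPM (57.6 to 112).

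Between the libraries, 2 of 47 list genes compared in fibroblasts were higher in the core (4.26%) and 4 were lower (8.51%), against 6.14% and 5.53% of all genes. Colgalt1, which adds galactose to collagen, was 2.27 times higher in the core (1.06 to 4.73) and Tll1, a propeptidase, 3.03 times (1.35 to 6.73). Sparc, a collagen-binding organiser, was at 0.309 times its distal level and Timp3 at 0.363 times (14 UMIs against 125). Loxl1 and Bgn, a small proteoglycan of fibrils, had 0 core UMIs against 29 and 18 distal UMIs. The upper Poisson limit of a count of 0 in core fibroblasts is 25.65 CPM. None of the 10 receptors compared was called in fibroblasts.

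In neurons 5 of 29 list genes compared were higher in the core and 6 lower (17.2% and 20.7%), against 11.3% and 14.4% of all genes. In oligodendrocytes 6 of 28 were higher and 7 lower (21.4% and 25%), against 15.2% and 9.03%. Neurons of the core were higher in the prolyl hydroxylase P3h2 (1.60 times), Colgalt1 (1.58 times), the N-propeptidase Adamts3 (1.84 times) and the collagen receptors Itga10 (1.82 times) and Mrc2 (1.60 times). They were lower in Colgalt2 (0.635 times), the propeptidase Tll2 (0.472 times), Sparc (0.140 times), Tnxb (0.584 times), the inhibitory collagen receptor Lair1 (0.241 times) and Timp4 (0.584 times). Lair1 is an immune cell gene. In distal and core neurons, oligodendrocyte markers summed to 2386 and 300.5 CPM, astrocyte markers to 225.8 and 77.5 CPM, and myeloid markers to 66.7 and 14.45 CPM. How much of Lair1, Sparc, Timp4 and the other lower genes in distal neurons is RNA of other cells was not tested. Core oligodendrocytes were higher in P4ha2 (4.66 times, 8 core UMIs), the collagen export factor Mia3 (1.89 times), Tll1 (4.58 times), Adamts3 (3.10 times) and Timp2 (1.66 times). They were lower in P4ha1 (0.351 times, 0.209 to 0.553), Ppib (0.277 times), Pcolce2, an enhancer of propeptide removal (0.257 times), the receptor kinase Ddr1 (0.401 times), the collagenase Ctsk (0.240 times) and Timp3 (0.353 times), and Sparc had 0 core against 70 distal UMIs.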

How the data were processed

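Single-nucleus RNA of 1 injury core and 1 distal library was used as the authors' deposited UMI counts per gene and barcode, made with Cell Ranger 7.1.0 per the file headers. The builds mm10 and GRCh38 and the tool Seurat are named, without a role, per the submitters' processing notes.

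Nuclei were kept from 300 genes upward and up to 5% mitochondrial counts, scaled to 10000, and clustered over both libraries (scanpy 1.11.5, leidenalg 0.10.2, Python 3.11.15) on 2000 variable genes without collagens, 40 components, 15 neighbours and resolution 1.0. Clusters took their class from marker lists without collagens. Scrublet called 0 doublets in either library, which is no working call, so doublets were left in. Clusters of high UMIs with markers of more than 1 class were clustered again. Their parts were set aside as mixed or unnamed, apart from cluster 26, which was classed as oligodendrocytes. Members and lists were chosen with earlier results of these data known, and how a cluster was given its class was settled after the data had been seen.

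UMIs were summed per class and library and given as CPM with exact Poisson 95% intervals, shares with exact Clopper-Pearson intervals, and ratios with exact conditional intervals (scipy 1.17.1). All cover counting error only. Where a limit is given for a count of 0, it is the upper Poisson limit. With 1 library per group no p-value was computed, and nuclei are not replicates. The interval scripts were tested on simulated data. Every member with at least 20 UMIs is given in its highest class in each library where it has at least 10 UMIs there. From each list the text gives the 2 genes highest in distal fibroblasts and up to 2 called genes per direction. Alternatives included TMM scaling (edgeR 4.0.16, R 4.3.3).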

Additional observations from a re-analysis of the deposited data

How the results depend on the processing

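Of the alternative values for the main counts and sums, 75 stayed within the limits set for a change and 33 moved; for single genes 409 stayed, 83 moved, 28 lost their call and 1 reversed. The summed collagen level of core fibroblasts (2955 CPM) was 2252 CPM with collagen genes kept in clustering, 2267 CPM at Leiden resolution 2.0, 2264 CPM with at least 500 genes, 2314 CPM with the highest doublet scores removed and 2388 CPM without sub-clusters 34 and 35. The distal sum (3210 CPM) was 2133, 2130, 2167, 2280 and 2417 CPM under the same settings, 1912 CPM with nuclei classed singly and 3571 CPM after thinning. The distal list genes highest in fibroblasts fell in number from 23 to 15 with collagens kept, at resolution 2.0 and with doublet scores removed. Members lower in core neurons (2) numbered 4 with collagens kept, 1 at resolution 2.0, with at least 500 genes, with doublet scores removed and with nuclei classed singly, 5 without a minimum level and 0 at a 2-fold call. Members higher in core oligodendrocytes (8) numbered 14 with collagens kept and 13 at resolution 2.0 and with at least 500 genes. Members lower there (1) numbered 0 with collagens kept, at resolution 2.0, with at least 500 genes, with doublet scores removed, with nuclei classed singly and without the 38 shared barcodes, and 2 without a minimum level. The member higher in core fibroblasts (1) was 0 at a 2-fold call. Shares over all genes were not computed under these settings. The changes in these counts therefore do not set collagens apart from other genes. Col20a1 in neurons reversed to 2.02 with nuclei classed singly. The causes were not tested. The settings without sub-clusters 34 and 35 and without shared barcodes were chosen after seeing the data. Several settings left under 100 core fibroblasts, and resolution 0.5 too few core oligodendrocytes, so those ratios have no value. No paired analysis was possible because each region has 1 library, and for the same reason no replicate could be left out.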
